A study of Mus musculus with 12 samples.

Results

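The 6 genes Gatm, Arg1, Nos2, Ass1, Odc1 and Slc7a2 make, import or consume the amino acid arginine, and their RNA was followed in mouse breast tumors treated with proteins that act on macrophages and T cells. They were taken by symbol from a table of 55401 genes in 12 bulk tumor libraries, and all 6 were among the 15504 genes expressed highly enough to be tested. Gatm was proposed for its level in BF10 against aCSF1R tumors, so it was chosen by these values. Its levels in aCSF1R and BF10 libraries are given as a description with no p-value. Only the counts in the closing section on processing include its calls, and nothing is read from its part there. The other 5 were listed with Gatm for their role in arginine metabolism.

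The tumors grew from 4T1, a mouse mammary carcinoma line, placed in the mammary tissue of Balb/c mice with an intact immune system. Each tumor came from a mouse treated with 1 of 4 proteins. The control was a control IgG, which the sample labels call control isotype (IgG1-Fc). IL-10-Fc was recombinant human interleukin-10 joined to an antibody Fc region. The third, aCSF1R, was an antibody against the mouse colony stimulating factor 1 receptor, on which macrophages depend. BF10 was the aCSF1R antibody carrying human interleukin-10. Treatment began at a tumor volume of 100 mm3 with 2 doses a week. The sample labels state 6 doses and the series text states 4, so the number given is uncertain. Each of the 4 groups had 3 libraries, 1 tumor each, numbered below as in the sample titles. The mice were 6 to 8 weeks old when bought. Whole tumor was sequenced, and the epithelial markers Epcam, Krt8, Krt18, Krt14 and Cdh1 summed to between 670 and 2290 TPM in every library. TPM is the deposited value of a gene rescaled so that each library sums to 1000000, and it corrects for gene length.

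Arginine is the branch point of several pathways. Arginase, encoded by Arg1, splits it into ornithine and urea. The inducible nitric oxide synthase, encoded by Nos2, turns it into nitric oxide and citrulline. Glycine amidinotransferase, encoded by Gatm, uses it for the first step of creatine synthesis. Ass1 encodes argininosuccinate synthase, which starts the rebuilding of arginine from citrulline, Odc1 encodes ornithine decarboxylase, which starts polyamine synthesis, and Slc7a2 encodes a cationic amino acid transporter that imports arginine. In macrophages, Arg1 and Nos2 compete for arginine and are widely used as markers of opposed activation states.

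The libraries did not fall into 1 homogeneous set. A set of 5, control replicates 4 and 7, IL-10-Fc replicate 7, aCSF1R replicate 8 and BF10 replicate 6, had a deposited FPKM sum between 782919 and 921581, and the other 7 lay between 609695 and 648413. Mitochondrial transcripts made up 5.9% to 9.26% of the values in the first set and 3.14% to 3.96% in the second, while the estimated depth was similar (29.7 to 32.6 and 29.6 to 34.3, in units of 1000000 fragments). All 6 members were lower in the higher-sum libraries, by 2.59 on the log2 scale for Nos2, 1.95 for Ass1, 1.33 for Gatm, 1.22 for Slc7a2, 1.17 for Arg1 and 0.83 for Odc1. Such differences were not particular to these genes. Over all tested genes, 59.2% (9180 genes) passed the threshold between the library sets, counted in either direction. That threshold was adjusted p below 0.05 with at least 1.5-fold change. The control group holds 2 higher-sum libraries and each treated group 1, so values within each set are given beside the results of the members and of Ckb. BF10 replicate 3 also stood apart, with 10 neutrophil markers summing to 19300 TPM against 447 to 3410 TPM in the other 11 libraries.

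The promoter stretches of Gatm, Ass1 and Odc1, 3 of the 6 members, are shown. These genes begin the creatine, arginine-rebuilding and polyamine branches followed below. No promoter sequence of Arg1, Nos2 or Slc7a2 was in the reference set used, so those were not analysed here. Each stretch lies upstream of the most upstream annotated start (RefSeq sequence, GRCm38.p6), reads 5′ to 3′ on the strand of the gene, and has the letters of any matched motif in capitals. Gatm, minus strand, chr2:122611304-122611527, had 2 CCAAT boxes, starting 164 and 29 bases before the end of the stretch:
Gatm: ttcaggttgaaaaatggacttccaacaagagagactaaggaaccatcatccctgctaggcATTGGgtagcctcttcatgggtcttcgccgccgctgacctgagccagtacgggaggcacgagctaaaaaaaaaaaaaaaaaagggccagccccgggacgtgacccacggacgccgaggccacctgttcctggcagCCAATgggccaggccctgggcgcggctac
Odc1, plus strand, chr12:17544623-17544793, had 3 GC boxes:
Odc1: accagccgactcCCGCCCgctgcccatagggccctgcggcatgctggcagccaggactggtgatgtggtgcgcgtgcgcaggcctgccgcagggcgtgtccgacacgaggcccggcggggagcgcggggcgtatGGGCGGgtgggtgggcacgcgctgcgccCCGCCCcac
Ass1, plus strand, chr2:31470020-31470206, matched none of the 5 motifs:
Ass1: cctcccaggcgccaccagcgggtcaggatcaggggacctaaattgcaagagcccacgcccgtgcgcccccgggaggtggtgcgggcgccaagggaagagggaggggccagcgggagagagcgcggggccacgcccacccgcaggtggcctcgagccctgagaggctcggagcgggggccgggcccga

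The motifs searched on both strands were the GC box GGGCGG, the CCAAT box CCAAT, the E-box CACGTG, the TATA box TATAAA and the PU.1 core GAGGAA. In 32851 promoters cut to the length of the Gatm stretch (224 bases), 31.5% held a CCAAT box and 20.8% a PU.1 core, and at the length of the Odc1 stretch (171 bases) 19.6% held a GC box. GC content was 57.6% for Gatm, 77.2% for Odc1 and 75.4% for Ass1. These matches are letters in a window and do not show that a factor binds there.

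**Figure D1:**
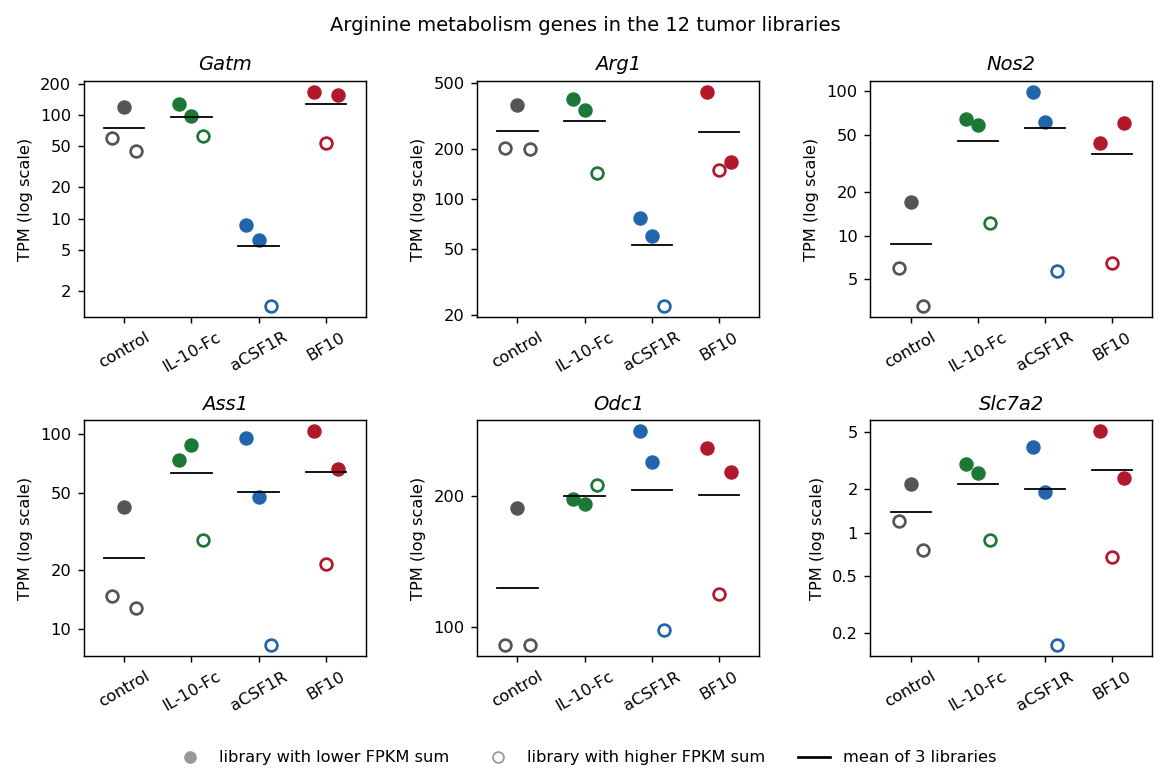
TPM on a log scale of the 6 members in each of the 12 libraries, by group; filled points are lower-sum and open points higher-sum libraries, and bars are the means of 3 libraries. The 3 aCSF1R libraries are below all others for Gatm (1.44 to 8.62 TPM) and Arg1 (22.7 to 76.9 TPM). The 4 other genes show no such gap, and the share of all tested genes with one was not counted.

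Gatm (ENSMUSG00000027199, GRCm38 chr2:122594467-122611303, minus strand, 9 exon blocks) was low in the aCSF1R tumors. Its level was 8.62, 6.23 and 1.44 TPM in aCSF1R replicates 4, 6 and 8. The control replicates 4, 5 and 7 held 59.9, 118 and 45.4 TPM, the IL-10-Fc replicates 2, 4 and 7 held 128, 97.1 and 62.0 TPM, and the BF10 replicates 3, 6 and 7 held 167, 54.1 and 157 TPM. No aCSF1R library reached the lowest library of any other group, and the control, IL-10-Fc and BF10 libraries overlapped.

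In group means, Gatm was 126 ± 62.4 TPM in BF10, 95.7 ± 33.0 in IL-10-Fc, 74.5 ± 38.5 in control and 5.43 ± 3.65 in aCSF1R tumors (SD, n = 3). The order of the first 3 did not exceed the spread between libraries. The fitted differences, on the scale of log2(TPM + 1), were 4.36 for BF10 against aCSF1R, 4.06 for IL-10-Fc against aCSF1R and -3.65 for aCSF1R against control. Among the 5 higher-sum libraries alone, the BF10 library exceeded the aCSF1R library by 4.50, and among the 7 lower-sum libraries the difference was 4.29. Against control, the aCSF1R difference was -4.44 in the higher-sum and -3.84 in the lower-sum libraries. IL-10-Fc against control, which did not choose the gene, gave 0.41 ± 0.60 (SE; limma adjusted p = 0.743), and -0.08 within the lower-sum libraries.

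Arg1 (ENSMUSG00000019987, GRCm38 chr10:24915221-24927484, minus strand, 7 exon blocks) had the highest mean of the 56 arginine pathway genes after Oaz1 and Sat1 and was lowest in the aCSF1R tumors. Its level was 76.9, 60.2 and 22.7 TPM in aCSF1R replicates 4, 6 and 8. It was 202, 370 and 201 TPM in control replicates 4, 5 and 7. The IL-10-Fc replicates 2, 4 and 7 gave 401, 346 and 143 TPM, and the BF10 replicates 3, 6 and 7 gave 443, 149 and 168 TPM. The highest aCSF1R library was below the lowest library of each other group, and the remaining groups overlapped. The share of all tested genes with such a gap was not counted.

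The aCSF1R tumors differed from control by -2.36 ± 0.57 in Arg1 on the log2(TPM + 1) scale (95% interval -3.62 to -1.09), from BF10 by 2.21 ± 0.57 (0.95 to 3.47, BF10 minus aCSF1R) and from IL-10-Fc by 2.49 ± 0.57 (1.23 to 3.75, IL-10-Fc minus aCSF1R). None passed the threshold, with limma adjusted p = 0.181, 0.208 and 0.141 over all genes and unadjusted p = 0.00179, 0.00274 and 0.00122. With the library set as a term in the model, the SE fell to between 0.30 and 0.31 and all 3 passed, with differences of -2.75, 2.21 and 2.49 and limma adjusted p = 0.000529, 0.00149 and 0.000916. They also passed when libraries were scaled by the median of ratios and when FPKM was used unscaled, and over the 20 alternative settings the adjusted p ranged from 0.000529 to 0.434, from 0.00149 to 0.917 and from 0.000916 to 0.64. Within the higher-sum libraries the 3 aCSF1R differences were -3.09, 2.66 and 2.60, and within the lower-sum libraries -2.43, 1.99 and 2.44. Arg1 in BF10 against control was -0.14 ± 0.57 (limma adjusted p = 0.9), and in IL-10-Fc against control 0.13 ± 0.57 (limma adjusted p = 0.903). Within the higher-sum and lower-sum libraries, BF10 against control gave -0.43 and -0.44, and IL-10-Fc against control gave -0.49 and 0.01. BF10 replicate 3, the library with the high neutrophil markers, also held the highest Arg1, and the part of neutrophils in that value was not tested.

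Macrophage markers moved with both genes. All 12 markers, among them Adgre1, Csf1r, C1qa and Mrc1, had their lowest group mean in aCSF1R tumors, and none was at 0 there. Their summed level was 87.0 to 281 TPM in aCSF1R libraries, against 1830 to 2320 TPM in control, 1850 to 1890 TPM in BF10 and 1530 to 1760 TPM in IL-10-Fc libraries. In bulk tumor RNA, fewer macrophages and less RNA of a gene per macrophage cannot be told apart, and the part of macrophage number in the Gatm and Arg1 values was not tested.

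Each gene was also set against that sum. Gatm amounted to 1.66% to 3.3% of the macrophage marker sum in aCSF1R libraries and to 1.96% to 8.96% in the other 9, ranges that overlap. Within the lower-sum libraries Gatm was 3.07% and 3.3% in aCSF1R, below the 5.52% to 8.96% of the others. Within the higher-sum libraries it was 1.66% in aCSF1R, below the 1.96% to 4.04% of the others. Arg1 amounted to 26.1% to 31.9% in aCSF1R libraries, above the 7.87% to 23.7% of the other 9. C1qa, C1qb and C1qc made up most of that sum, at 636, 227 and 632 of 1830 TPM in control replicate 4. The markers did not fall alike. The mean in aCSF1R against control tumors was 48.6 against 694 TPM for C1qa and 3.55 against 16.2 TPM for Adgre1. The shares therefore depend on the markers summed, and Arg1 was not set against single markers. These shares are descriptions over libraries that share the marker list, and no test was made of them.

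**Figure D2:**
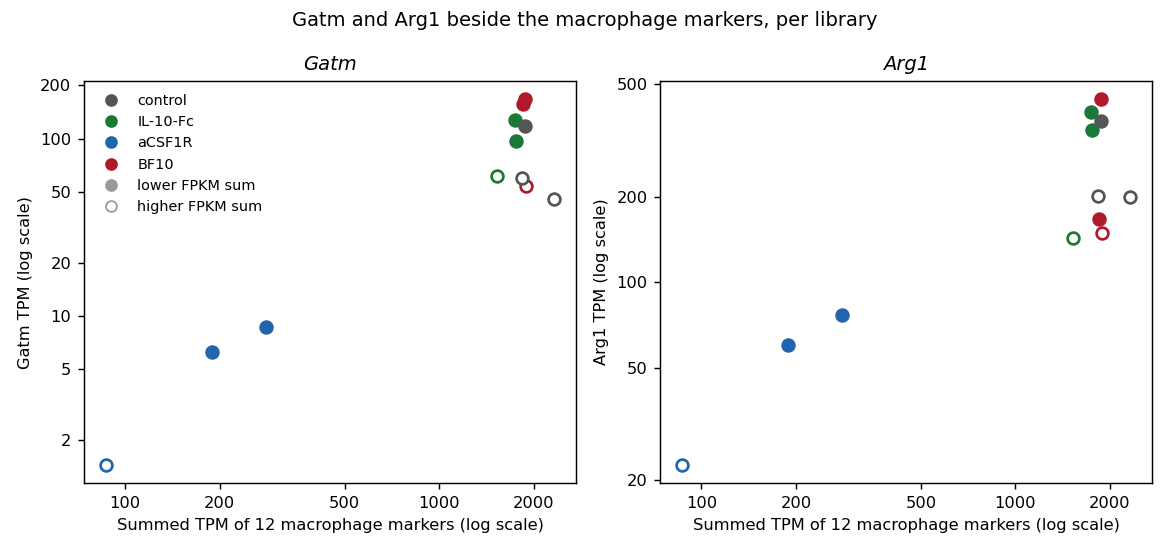
TPM of Gatm (left) and Arg1 (right) against the summed TPM of 12 macrophage markers, both axes logarithmic, 1 point per library; filled points are lower-sum and open points higher-sum libraries. The 3 aCSF1R libraries sit at the lower left in both panels, at sums of 87.0 to 281 TPM against 1530 to 2320 TPM in the other 9.

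Nos2 (ENSMUSG00000020826, GRCm38 chr11:78920787-78960254, plus strand, 29 exon blocks) was lowest on average in control tumors, not in aCSF1R tumors. It was 5.92, 17.1 and 3.24 TPM in control replicates 4, 5 and 7, and 64.3, 58.1 and 12.3 TPM in IL-10-Fc replicates 2, 4 and 7. The aCSF1R replicates 4, 6 and 8 gave 99.0, 61.6 and 5.69 TPM, and the BF10 replicates 3, 6 and 7 gave 43.7, 6.43 and 60.4 TPM. The higher-sum library was the lowest of each treated group, and every treated group overlapped with control.

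The control mean of Nos2 was 8.76 ± 7.36 TPM, and the means of the treated groups were 55.4 ± 47.0 for aCSF1R, 44.9 ± 28.4 for IL-10-Fc and 36.8 ± 27.6 for BF10 (SD, n = 3). Against control the log2 differences were 2.20 ± 1.12 for IL-10-Fc, 2.10 ± 1.12 for aCSF1R and 1.75 ± 1.12 for BF10, with limma adjusted p = 0.738, 0.893 and 0.788. Within the 7 lower-sum libraries, where only 1 control remained, all 6 treated libraries were above it, and the differences were 1.78, 2.13 and 1.53. Within the 5 higher-sum libraries they were 1.29, 0.30 and 0.46. With the library set as a term the differences shrank to 1.34, 1.24 and 0.89, with limma adjusted p = 0.942, 0.188 and 0.993 and unadjusted p = 0.00403, 0.00641 and 0.0339. A difference in Nos2 from control was not detectable past the threshold in any treated group.

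The ratio of Nos2 to Arg1 within a library does not depend on how the library is scaled. In bulk tumor RNA it mixes all cell types, so it does not measure the balance within macrophages. The macrophage marker sum was 87.0 to 281 TPM in aCSF1R and 1830 to 2320 TPM in control libraries. The part of macrophage number in the ratio was not tested. The ratio, chosen after the values of both genes were seen, was 0.0293, 0.0463 and 0.0161 in control replicates 4, 5 and 7. It was 0.161, 0.168 and 0.086 in IL-10-Fc replicates 2, 4 and 7, and 0.0988, 0.0432 and 0.359 in BF10 replicates 3, 6 and 7. In aCSF1R replicates 4, 6 and 8 it was 1.29, 1.02 and 0.25. The aCSF1R and IL-10-Fc ratios lay above every control ratio, while BF10 replicate 6 lay within the control range.

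The log2 ratio was 4.63 higher in aCSF1R than in control tumors (24.7-fold), 2.24 higher in IL-10-Fc (4.73-fold) and 2.04 higher in BF10 (4.12-fold). The two-sided exact permutation p was 0.1, 0.1 and 0.2, and 0.1 is the smallest that 3 against 3 libraries can give. The difference was -2.58 for BF10 against aCSF1R (exact permutation p = 0.2) and -2.38 for IL-10-Fc against aCSF1R (exact permutation p = 0.1), whereas BF10 and IL-10-Fc differed by -0.20 (exact permutation p = 1). Adjusted over the 6 comparisons, these exact permutation p-values were between 0.2 and 1. Against control, the log2 ratio differed by 3.53 for aCSF1R, 1.98 for IL-10-Fc and 0.99 for BF10 within the higher-sum libraries, and by 4.63, 1.83 and 2.02 within the lower-sum libraries.

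**Figure D3:**
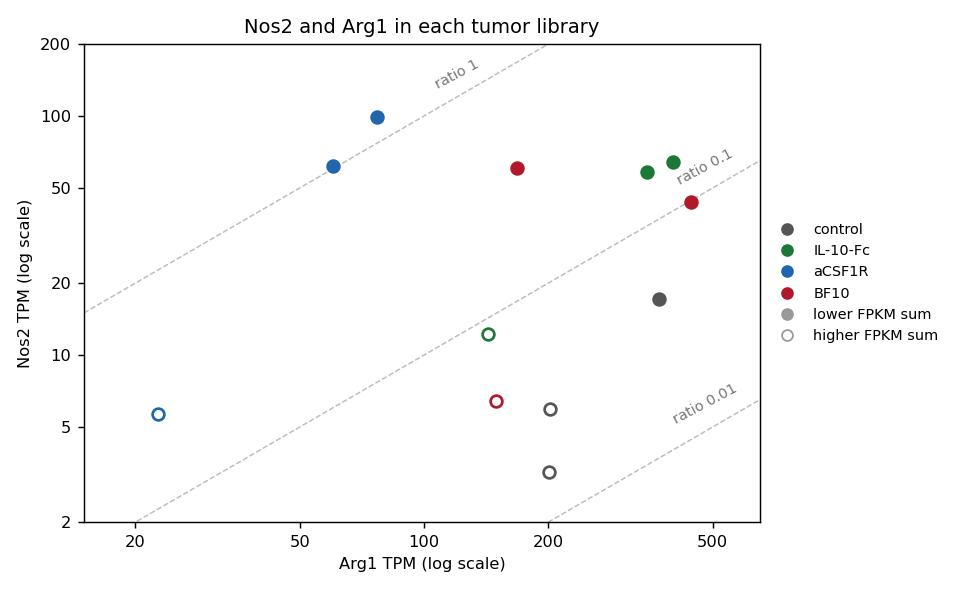
Nos2 against Arg1 TPM, both axes logarithmic, 1 point per library, with dashed lines at Nos2 to Arg1 ratios of 1, 0.1 and 0.01; filled points are lower-sum and open points higher-sum libraries. The aCSF1R libraries lie between 0.25 and 1.29 and the control libraries between 0.0161 and 0.0463.

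Ass1 (ENSMUSG00000076441, GRCm38 chr2:31470207-31520672, plus strand, 16 exon blocks) was highest in lower-sum libraries of the treated groups. It measured 14.7, 42.2 and 12.7 TPM in control replicates 4, 5 and 7, and 73.6, 87.8 and 28.6 TPM in IL-10-Fc replicates 2, 4 and 7. The aCSF1R replicates 4, 6 and 8 gave 95.7, 47.7 and 8.19 TPM, and the BF10 replicates 3, 6 and 7 gave 104, 21.4 and 66.4 TPM. All groups overlapped, but each of the 6 treated lower-sum libraries exceeded the lower-sum control. Against control the log2 differences were 1.47 ± 0.87 for IL-10-Fc, 1.36 ± 0.87 for BF10 and 0.74 ± 0.87 for aCSF1R, with limma adjusted p = 0.738, 0.788 and 0.893. Within the lower-sum libraries they were 0.92, 0.96 and 0.67, and within the higher-sum libraries 1.01, 0.61 and -0.68.

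Odc1 (ENSMUSG00000011179, GRCm38 chr12:17544794-17551505, plus strand, 7 exon blocks) was abundant in all tumors, at 90.9, 187 and 91.1 TPM in control replicates 4, 5 and 7. The IL-10-Fc replicates 2, 4 and 7 held 197, 191 and 211 TPM, the only treated group that stayed above every control library. How many of all tested genes did so was not counted. The aCSF1R replicates 4, 6 and 8 held 281, 239 and 98.6 TPM, and the BF10 replicates 3, 6 and 7 held 257, 119 and 227 TPM. The differences from control were 0.78 ± 0.44, 0.69 ± 0.44 and 0.71 ± 0.44 on the log2 scale for IL-10-Fc, aCSF1R and BF10 (limma adjusted p = 0.738, 0.893 and 0.788). Within the lower-sum libraries these were 0.05, 0.47 and 0.37, and within the higher-sum libraries 1.20, 0.11 and 0.38. A processed copy of Odc1 listed as Gm7993 shares 51.8% of its 31-base words with Odc1 transcripts, so some reads could be divided between the 2 genes.

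Slc7a2 (ENSMUSG00000031596, GRCm38 chr8:40862396-40922308, plus strand, 15 exon blocks) was the least expressed member. It lay at 1.21, 2.19 and 0.754 TPM in control replicates 4, 5 and 7, and at 3.03, 2.59 and 0.881 TPM in IL-10-Fc replicates 2, 4 and 7. The aCSF1R replicates 4, 6 and 8 gave 3.97, 1.92 and 0.163 TPM, and the BF10 replicates 3, 6 and 7 gave 5.11, 0.675 and 2.42 TPM. The higher-sum library was the lowest of each treated group, and all groups overlapped. The differences from control were 0.38 ± 0.59 for IL-10-Fc, 0.15 ± 0.59 for aCSF1R and 0.50 ± 0.59 for BF10 on the log2(TPM + 1) scale, which understates changes at such levels (limma adjusted p = 0.75, 0.931 and 0.788). They were -0.07, -0.76 and -0.23 within the higher-sum libraries and 0.25, 0.25 and 0.52 within the lower-sum libraries, opposite in sign. An antisense transcript overlaps the start of the gene, and whether counting used strand is not stated.

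**Figure D4:**
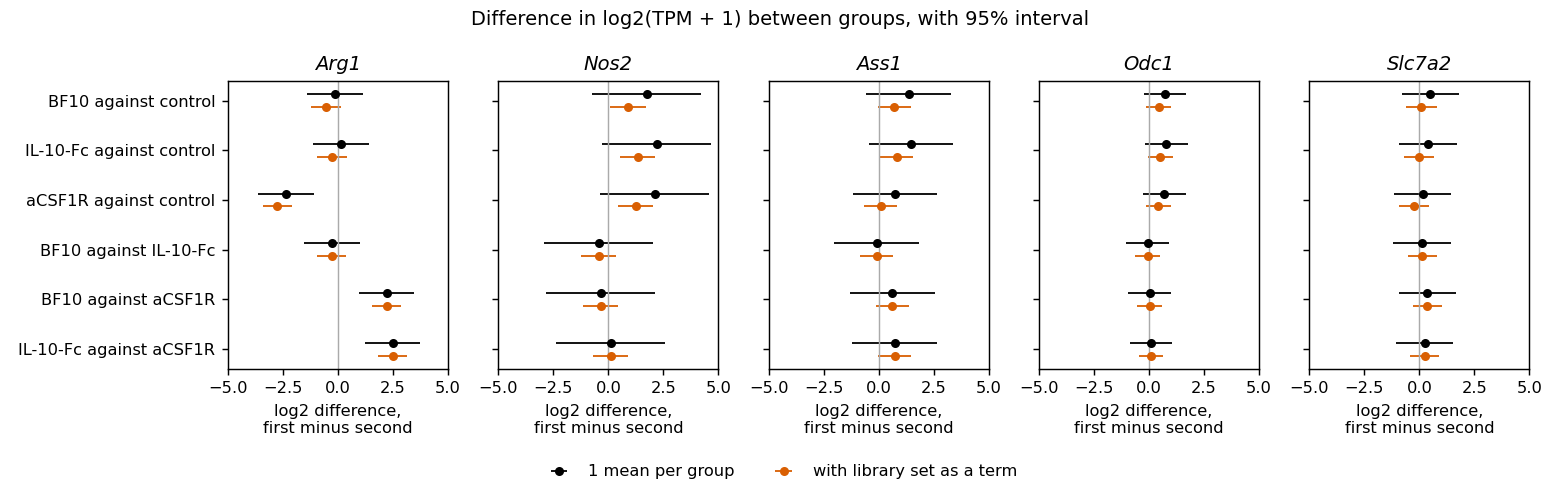
Differences in log2(TPM + 1), first group minus second, with 95% intervals, for the 5 members other than Gatm in the 6 comparisons; black is the fit with 1 mean per group and orange the fit with the library set as a term. Both intervals of Arg1 exclude 0 in the 3 comparisons with aCSF1R.

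Counted over the comparisons, 0 of the 5 members other than Gatm passed the threshold of adjusted p below 0.05 with at least 1.5-fold change in any of the 6 (limma). Gatm, chosen by these values, is not counted. The share of all 15504 genes that passed was 0.568% for aCSF1R against control, 0.735% for BF10 against aCSF1R, 0.542% for IL-10-Fc against aCSF1R, 0.00645% for IL-10-Fc against control, 0% for BF10 against control, and likewise 0% for BF10 against IL-10-Fc. In limma, an unadjusted p below 0.05 was found for 1 of the 5 (Arg1) in each of the 3 comparisons with aCSF1R. In each of the others it was found for 0 of 5. Over all 15504 genes it was found for 537 (aCSF1R against control), 661 (BF10 against aCSF1R) and 552 (IL-10-Fc against aCSF1R). In the other comparisons it was found for 234 (BF10 against control), 224 (IL-10-Fc against control) and 42 (BF10 against IL-10-Fc). The median log2 change of the 5 members other than Gatm was 0.69 for aCSF1R, 0.71 for BF10 and 0.78 for IL-10-Fc against control. Over all genes tested it was 0.24, 0.32 and 0.35. The control group holds 2 higher-sum libraries, where all members were lower, so these medians are not balanced for library set. With the set as a term, the medians over all genes were 0.0068, 0.068 and 0.1. The middle values of the 5 members were then 0.09 (Ass1), 0.44 (Odc1) and 0.5 (Odc1). The differences of BF10 against IL-10-Fc in the members other than Gatm lay between -0.44 (Nos2) and 0.12 (Slc7a2), with 95% intervals as wide as -2.92 to 2.03 for Nos2.

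The wider pathway was read from a list of 56 genes, of which 46 were tested. The first enzymes of the liver urea cycle were all but missing from the tumors: Cps1 reached at most 0.0163 TPM and Otc at most 0.0156 TPM, and Nos1, the neuronal nitric oxide synthase, at most 0.0785 TPM. Leaving out Gatm, 1 of the other 45 tested genes (Ckb) passed, with a higher level in BF10 than in aCSF1R and in IL-10-Fc than in aCSF1R tumors. The share of all 15504 genes that passed was 0.735% and 0.542% in these comparisons. In limma, an unadjusted p below 0.05 was found there for 3 and 2 of the 45, beside 661 and 552 of all genes. In limma, 0 of 45 passed in the other 4 comparisons. In those 4 an unadjusted p below 0.05 was found for 3 genes (aCSF1R against control), 1 (BF10 against control), 0 (IL-10-Fc against control) and 0 (BF10 against IL-10-Fc). Over all 15504 genes the counts were 537, 234, 224 and 42 in the same order. The median log2 change of these 45 genes was 0.19 for aCSF1R against control and 0.18 for BF10 against aCSF1R, beside 0.24 and 0.056 over all genes.

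Ckb encodes the brain-type creatine kinase, the enzyme that stores energy as phosphocreatine. Ckb was 8.49, 3.94 and 0.901 TPM in aCSF1R replicates 4, 6 and 8, and 16.1, 21.5 and 9.78 TPM in control replicates 4, 5 and 7. It was 36.1, 42.7 and 32.2 TPM in IL-10-Fc replicates 2, 4 and 7, and 79.9, 25.3 and 35.0 TPM in BF10 replicates 3, 6 and 7. The aCSF1R libraries were lowest, the control libraries lay between, and the IL-10-Fc and BF10 libraries were above both. Ckb is described because it passed in these same libraries, and the share of all tested genes with such an order was not counted.

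Within the higher-sum libraries Ckb differed by 3.79 between BF10 and aCSF1R, by 4.13 between IL-10-Fc and aCSF1R and by -2.84 between aCSF1R and control. Within the lower-sum libraries these differences were 2.98, 2.56 and -1.72.

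Over all libraries Ckb differed by 3.25 ± 0.58 between BF10 and aCSF1R (limma adjusted p = 0.0286) and by 3.08 ± 0.58 between IL-10-Fc and aCSF1R (limma adjusted p = 0.0489). Against control it was -1.85 ± 0.58 in aCSF1R (limma adjusted p = 0.563), 1.40 ± 0.58 in BF10 (limma adjusted p = 0.788) and 1.23 ± 0.58 in IL-10-Fc (limma adjusted p = 0.738). The 2 calls were fragile, holding in 8 and 5 of 20 alternative settings with limma adjusted p between 0.000726 and 0.394 and between 0.00144 and 0.307. For BF10 against aCSF1R, the adjusted p was 0.141 without BF10 replicate 3, 0.095 without BF10 replicate 7, 0.104 without aCSF1R replicate 6, and between 0.0563 and 0.0591 without aCSF1R replicate 8, control replicate 4 or any 1 IL-10-Fc library. For IL-10-Fc against aCSF1R it was between 0.055 and 0.273 without any 1 library other than BF10 replicate 3 and aCSF1R replicate 4.

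The other tested genes of the creatine branch did not pass. Slc6a8, the creatine transporter, gave 12.2 to 51.6 TPM in aCSF1R and 12.3 to 33.2 TPM in control libraries (log2 difference 0.63 ± 0.58, limma adjusted p = 0.893). Gamt, which carries out the second step of creatine synthesis, gave 2.68 to 12.2 and 4.19 to 12.4 TPM (-0.03 ± 0.53, limma adjusted p = 0.982).

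The most abundant gene of each remaining role did not pass in any comparison. Slc3a2, the heavy chain shared by amino acid exchangers, changed by 0.36 ± 0.48 in aCSF1R against control, Ddah2, which clears methylated arginines that block nitric oxide synthase, by 0.31 ± 0.68, and Oaz1, which restrains Odc1 protein, by 0.07 ± 0.35. Oat, which links ornithine to proline, changed by -0.06 ± 0.26 and Castor1, an arginine sensor of the mTORC1 pathway, by 0.31 ± 0.30, and the limma adjusted p of these 5 genes was between 0.893 and 0.939. Arg2, the mitochondrial arginase, changed by -0.51 ± 0.36 (limma adjusted p = 0.893), and Slc7a7, which forms an exporter of arginine with Slc3a2, by -0.48 ± 0.63 (limma adjusted p = 0.893). Slc7a7, named here after its values were seen, passed only with the library set as a term, at 1.22 for BF10 against aCSF1R and 1.15 for IL-10-Fc against aCSF1R (limma adjusted p = 0.0253 and 0.0449).

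**Figure D5:**
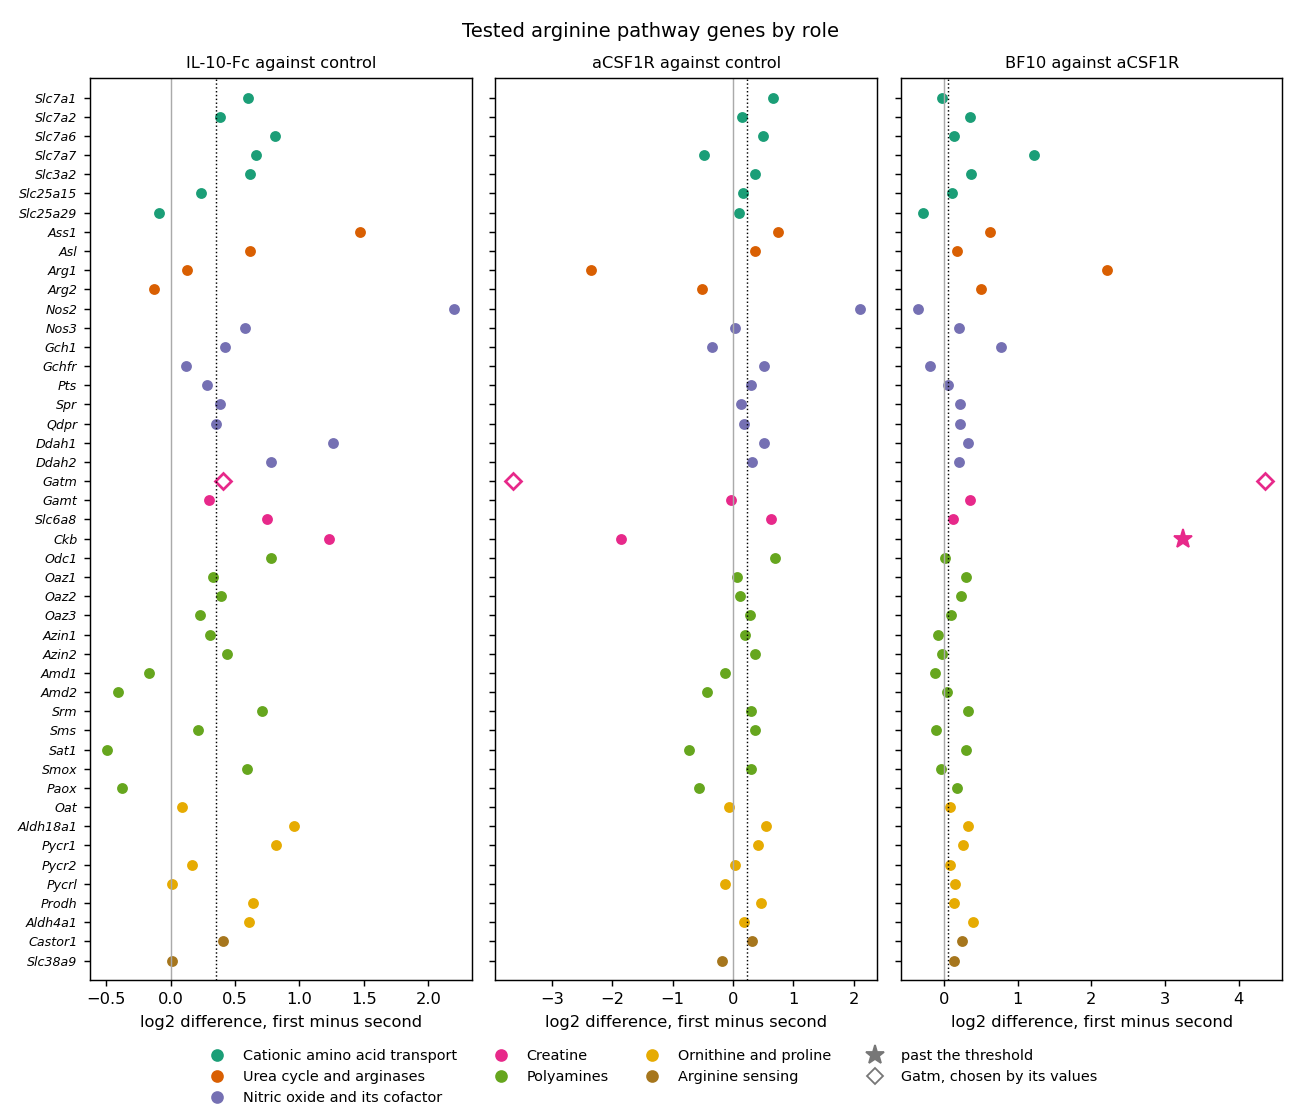
Log2 difference in each of the 46 tested arginine pathway genes, coloured by role, in 3 comparisons; the star marks the gene past the threshold, the open diamond Gatm, which was chosen by its values, grey lines 0 and dotted lines the median of all 15504 genes tested. Gatm and Ckb stand apart from the other creatine genes in both comparisons with aCSF1R, at -3.65 and -1.85 against control.

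The members were compared with each other across the 12 libraries. After the mean of each library set was subtracted, Gatm and Arg1 correlated at r = 0.93, Slc7a2 and Ass1 at 0.72, Odc1 and Ass1 at 0.66, Nos2 and Odc1 at 0.65, and Nos2 and Ass1 at 0.61. Arg1 and Slc7a2 gave 0.52, and Gatm gave 0.45 with Slc7a2 and 0.44 with Ass1. Gatm and Nos2 gave -0.25 and Arg1 and Nos2 -0.35, against 0.14 and 0.19 without the subtraction. These values are across libraries that fall into treatment groups and carry no test. The tested genes with the pattern most like Gatm were Gm44751 (r = 0.998), Otulinl (0.994), Msr1 (0.994), Lair1 (0.992) and Ms4a6c (0.991), of which Msr1 is the macrophage scavenger receptor and Lair1 an inhibitory collagen receptor of leukocytes. The nearest to Arg1 were Svbp (0.985) and Tfec (0.984), and the nearest to Nos2 were Syt17 (0.947) and Upp1 (0.944), the last at -0.102 without the subtraction. For Ass1 they were Myl12a (0.949) and Myo1d (0.945), for Slc7a2 Inka1 (0.929) and C1qtnf9 (0.907), and for Odc1 its copy Gm7993 (0.971) and Dgka (0.958).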

How the data were processed

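RNA of 12 orthotopic 4T1 tumors was made into stranded libraries of polyadenylated RNA and sequenced on an Illumina NextSeq. The submitters' processing notes name STAR 2.7.5a, RSEM 1.3.3 and DESeq2 1.28.0 with mouse genome mm10 (GRCm38). The authors deposited FPKM values with 2 decimals for 55401 genes, that is, fragments scaled by gene length and by the library's mapped fragments; which program computed them is not given in the sources used here. A further 4 tables hold the authors' own comparisons (fold changes and p-values) and were not used. All 12 value columns were matched to samples by name and 0 were left unmatched.

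FPKM is not a count, so no count model was run. Each value was divided by its library sum and scaled to 1000000 (TPM). Genes with at least 1 TPM in at least 3 of 12 libraries were tested, 15504 of the 34194 above 0 in any library. In R 4.3.3, limma 3.58.1 (lmFit, then eBayes with trend) estimated a mean of log2(TPM + 1) for each group from the 12 libraries together, and p-values were adjusted over all tested genes by Benjamini and Hochberg. A gene passed at adjusted p below 0.05 and at least 1.5-fold. Ratios were tested by exact permutation in SciPy 1.17.1. The fitting script was tested on simulated data. Each library is 1 tumor, so the p-values measure the spread between tumors.

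Depth was estimated as 29.6 to 34.3 (in units of 1000000 fragments) per library from the smallest FPKM step of 12436 genes with transcripts of 200 to 700 bases, after subtracting 60 bases from the length. The higher-sum and lower-sum libraries were divided at an FPKM sum of 700000.

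The genes and lists were chosen with earlier results of these data known. Genes named are the 6 members, pathway genes past the threshold, the most abundant gene of each role, and the 5 genes most like Gatm and 2 most like each other member by Pearson r of log2(TPM + 1). Slc6a8, Gamt, Arg2, Slc7a7, Sat1, Cps1, Otc and Nos1 fall outside this rule and were named after their values were seen. Alternatives were another pseudocount (0.1), unscaled FPKM, median of ratios scaling, no filter, library set as a term, only the 2 groups compared, a replicate block, and leaving out each library. The fit within the 7 lower-sum libraries and the ratio of Nos2 to Arg1 were added after the data were seen.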

Additional observations from a re-analysis of the deposited data

How the results depend on the processing

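Of the member counts, those for BF10 against control, IL-10-Fc against control and BF10 against IL-10-Fc stayed at 0 under all 20 alternatives, as did the pathway counts. Over all genes the counts ranged from 0 to 312 for aCSF1R against control, 0 to 437 for BF10 against aCSF1R and 1 to 330 for IL-10-Fc against aCSF1R. The cause of the changes below was not tested. The member and pathway counts include Gatm, which was chosen by these values, and nothing is read from its part in them. In the main fit the member count was 1, Gatm alone, in each of the 3 comparisons with aCSF1R. The pathway count was 1 for aCSF1R against control. It was 2, with Ckb, for BF10 against aCSF1R and for IL-10-Fc against aCSF1R.

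The member count was 2 (Gatm and Arg1) in each of the 3 comparisons with aCSF1R for unscaled FPKM, median of ratios scaling and library set as a term. Arg1 passed in no other setting. With only the 2 groups compared the member count was 0 in each, and without a filter 0 for aCSF1R against control. The pathway count for aCSF1R against control was 2 for unscaled FPKM, 3 for median of ratios, 3 with the set term, 0 without a filter and 0 with only the 2 groups. For BF10 against aCSF1R it was 4 with the set term, 1 without a filter, 0 with only the 2 groups and 1 within the lower-sum libraries. For IL-10-Fc against aCSF1R it was 4, 1, 0 and 1 under the same settings, and 1 with pseudocount 0.1. Leaving out 1 library, the member count ranged from 0 to 1 for aCSF1R against control and for IL-10-Fc against aCSF1R, and the pathway count from 0 to 1 for aCSF1R against control, from 1 to 2 for BF10 against aCSF1R and from 0 to 2 for IL-10-Fc against aCSF1R.

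Deviations from the group mean correlated between same-numbered libraries at r from -0.66 to 0.42. The library set was not removed, and r was positive only between libraries of the same set (0.35 and 0.42). This check therefore cannot decide whether the numbers pair the libraries. With the number as a replicate block, which leaves 2 residual degrees of freedom, the member count and the pathway count were 0 in all 6 comparisons. Under the block, sign changes in log2 were 0.71 (Nos2) and 0.39 (Ass1) for BF10 against IL-10-Fc, -0.44 (Slc7a2), -0.75 (Odc1) and -0.52 (Ass1) for BF10 against aCSF1R, and -2.26 (Nos2), -0.89 (Slc7a2), -0.71 (Odc1) and -0.92 (Ass1) for IL-10-Fc against aCSF1R.

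The other sign changes were all in differences that did not pass. For IL-10-Fc against control, Gatm was -0.02 under median of ratios, -0.03 with the set term and -0.08 within the lower-sum libraries, Arg1 was -0.08 for unscaled FPKM, -0.31 under median of ratios and -0.26 with the set term, and Slc7a2 was -0.03 with the set term. For aCSF1R against control, Slc7a2 was -0.08 with pseudocount 0.1, -0.12 under median of ratios and -0.26 with the set term. Under median of ratios Nos2 was -0.08 and Odc1 -0.12 for IL-10-Fc against aCSF1R, and Odc1 -0.12 for BF10 against aCSF1R. Within the lower-sum libraries, Odc1 was 0.31, Ass1 0.04 and the log2 ratio of Nos2 to Arg1 0.20 for BF10 against IL-10-Fc, Odc1 was -0.10 for BF10 against aCSF1R, and Nos2 was -0.35, Slc7a2 0.00 (just below it) and Odc1 -0.41 for IL-10-Fc against aCSF1R.

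Leaving out 1 library at a time, the ranges that crossed 0 were, for Arg1, -0.64 to 0.15 (BF10 against control), -0.15 to 0.59 (IL-10-Fc against control) and -0.77 to 0.01 (BF10 against IL-10-Fc). For BF10 against IL-10-Fc they were -1.19 to 0.50 for Nos2, -0.33 to 0.60 for Slc7a2, -0.28 to 0.27 for Odc1, -0.59 to 0.53 for Ass1 and -1.02 to 0.51 for the log2 ratio of Nos2 to Arg1. For BF10 against aCSF1R they were -1.53 to 0.59 for Nos2, -0.22 to 0.84 for Slc7a2, -0.44 to 0.36 for Odc1 and -0.34 to 1.35 for Ass1. For IL-10-Fc against aCSF1R they were -1.09 to 0.86 for Nos2, -0.34 to 0.71 for Slc7a2, -0.37 to 0.38 for Odc1 and -0.24 to 1.46 for Ass1, and for aCSF1R against control -0.33 to 0.72 for Slc7a2. With 3 tumors a group, exact permutation cannot give a p below 0.1, and the spread within groups limits what can be detected.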
